A study of Homo sapiens with 6 samples.

Results

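The genes described here are 9 receptors through which growth factors and interleukins act on blood cells: EPOR, CSF3R, CSF2RB, IL6R, IL6ST, IL2RA, KIT, FLT3 and CSF1R. They were chosen by symbol, as every probe set of the array that the annotation assigns to 1 of these symbols and to no other. This gave 151 probe sets for the 9 genes, out of 352859 probe sets and 22320 genes in all. Transcripts were measured in a pair of human cell lines, HEL and SET2, which the labels call acute myeloid leukemia lines. HEL is an erythroleukemia line, SET2 came from a leukemia after a platelet disorder, and both are known to carry an activated JAK2 kinase. Each line was transduced with lentiviral particles that carried the pLKO vector as control, an IGF1R shRNA or a miR-125a sponge, a transcript meant to bind that microRNA. All 6 cultures were then kept for 96 h in puromycin, so selection and viral transduction are shared by the controls. Each of the 6 combinations was hybridised once, to a GeneChip Human Gene 2.0 ST array.

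Cytokine receptors without kinase activity of their own signal through JAK kinases bound to their cytoplasmic tails. EPOR, the erythropoietin receptor, and CSF3R, the G-CSF receptor, pair with a second copy of themselves and in blood cells act mainly in red cell and neutrophil formation. CSF2RB is the common beta chain that GM-CSF, interleukin-3 and interleukin-5 receptors share, each with its own alpha chain. IL6R binds interleukin-6, and IL6ST (gp130) is the signalling chain that most of the interleukin-6 family uses. IL2RA (CD25) is the alpha chain that raises the affinity of the interleukin-2 receptor. KIT, FLT3 and CSF1R are receptor tyrosine kinases for stem cell factor, FLT3 ligand and macrophage colony-stimulating factor. JAK2 is the kinase of EPOR and CSF2RB and is one of those used by CSF3R and IL6ST, whereas IL2RA itself binds none.

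The upstream regions of 4 of the receptors are shown, since they are unlike in composition. Those of KIT and IL6ST are GC-rich, that of EPOR holds a GATA word and that of IL2RA is AT-rich. Each window runs 5′ to 3′ on the gene's strand from 250 bases before the annotated start to 50 bases after it, from RefSeq on GRCh38.p14. Capitals mark matches to a motif, on either strand, and non-overlapping.
EPOR: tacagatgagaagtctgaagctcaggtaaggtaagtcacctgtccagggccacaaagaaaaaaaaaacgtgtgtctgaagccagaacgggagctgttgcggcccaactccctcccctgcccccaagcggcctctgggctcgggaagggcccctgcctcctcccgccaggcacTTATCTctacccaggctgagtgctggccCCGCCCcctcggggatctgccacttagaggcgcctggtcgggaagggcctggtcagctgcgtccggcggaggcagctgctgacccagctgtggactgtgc
KIT: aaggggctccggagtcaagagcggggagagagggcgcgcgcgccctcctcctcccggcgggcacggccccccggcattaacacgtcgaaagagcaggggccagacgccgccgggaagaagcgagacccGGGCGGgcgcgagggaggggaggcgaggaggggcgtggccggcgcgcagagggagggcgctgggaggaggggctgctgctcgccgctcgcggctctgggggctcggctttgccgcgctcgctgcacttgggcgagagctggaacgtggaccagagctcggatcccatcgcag
IL6ST: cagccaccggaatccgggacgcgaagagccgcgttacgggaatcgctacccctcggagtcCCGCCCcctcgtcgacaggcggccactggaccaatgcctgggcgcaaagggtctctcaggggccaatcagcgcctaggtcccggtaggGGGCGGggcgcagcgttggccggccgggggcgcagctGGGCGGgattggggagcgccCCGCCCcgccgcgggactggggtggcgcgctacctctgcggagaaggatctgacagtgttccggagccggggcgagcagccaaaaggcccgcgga
IL2RA: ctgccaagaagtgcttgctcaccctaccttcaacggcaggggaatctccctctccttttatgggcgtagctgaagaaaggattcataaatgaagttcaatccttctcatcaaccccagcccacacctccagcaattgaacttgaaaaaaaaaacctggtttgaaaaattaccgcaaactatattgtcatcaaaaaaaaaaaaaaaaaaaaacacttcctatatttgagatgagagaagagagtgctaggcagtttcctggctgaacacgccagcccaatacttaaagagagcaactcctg
The EPOR window lies at chr19:11384265-11384564 on the minus strand and the KIT window at chr4:54657707-54658006 on the plus strand. IL6ST lies at chr5:55994914-55995213 and IL2RA at chr10:6062318-6062617, both on the minus strand. The motifs searched were the GATA words (AGATAA with its variant AGATAG, also TGATAA with its variant TGATAG), the word TTCNNNGAA that STAT factors bind, and the word GGGCGG, bound by SP1. EPOR held TTATCT, the reverse complement of AGATAA, from 78 to 73 bases upstream of its start, and CCGCCC from 50 bases upstream. KIT held GGGCGG from 122 bases upstream and IL6ST held 4 matches to that motif between 190 and 40 bases upstream. None of the 3 motifs was in the IL2RA window, whose GC content was 41.7%, against 63.3% for EPOR, 72.7% for IL6ST and 74.3% for KIT. Of all 35116 promoter windows in the table, 25% held a GATA word, 7.66% TTCNNNGAA and 45% GGGCGG, so each match is a description of the letters and not of a used site. RefSeq windows were found for 8 of the 9 receptors, the exception being CSF2RB, and TTCNNNGAA was in none of their 10 windows. Among the windows not printed, a CSF1R window held a GATA word and a match to GGGCGG.

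Values are log2 levels as the authors deposited them, averaged over the probe sets of a gene. They can be compared between arrays for 1 gene but not between genes, because probes differ in brightness. Array medians ran from 5.69 to 5.75. The array of HEL labelled IGF1R shRNA stood farthest from the control of its line, with a correlation across genes of 0.976 against 0.987 to 0.993 for the other transduced arrays. IGF1R itself was 8.63, 8.56 and 8.81 in HEL (control, IGF1R shRNA, sponge) and 8.32, 8.33 and 8.37 in SET2. Its average change under the shRNA was -0.03 (limma, SE 0.15, 95% interval -0.38 to 0.31, adjusted p = 0.973), so the transcript was not detectably lowered and the text speaks of the arrays labelled IGF1R shRNA. Of the markers of the labelled cell type, CD33 lay at 8.06 to 8.95 and ANPEP (CD13) at 9.60 to 10.13, while MPO, a granule enzyme of the granulocyte lineage, lay at 4.14 to 4.71. Markers of other lineages also lay at unlike values, from 10.23 to 10.83 for ITGA2B but 4.48 to 4.68 for VWF among megakaryocyte markers, and from 7.61 to 8.90 for CD4 but 4.35 to 4.70 for CD3E among lymphoid ones, so these levels give no check of the cell type beyond the values themselves. Presence calls were not made, because the deposited values carry no background measure.

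**Figure D1:**
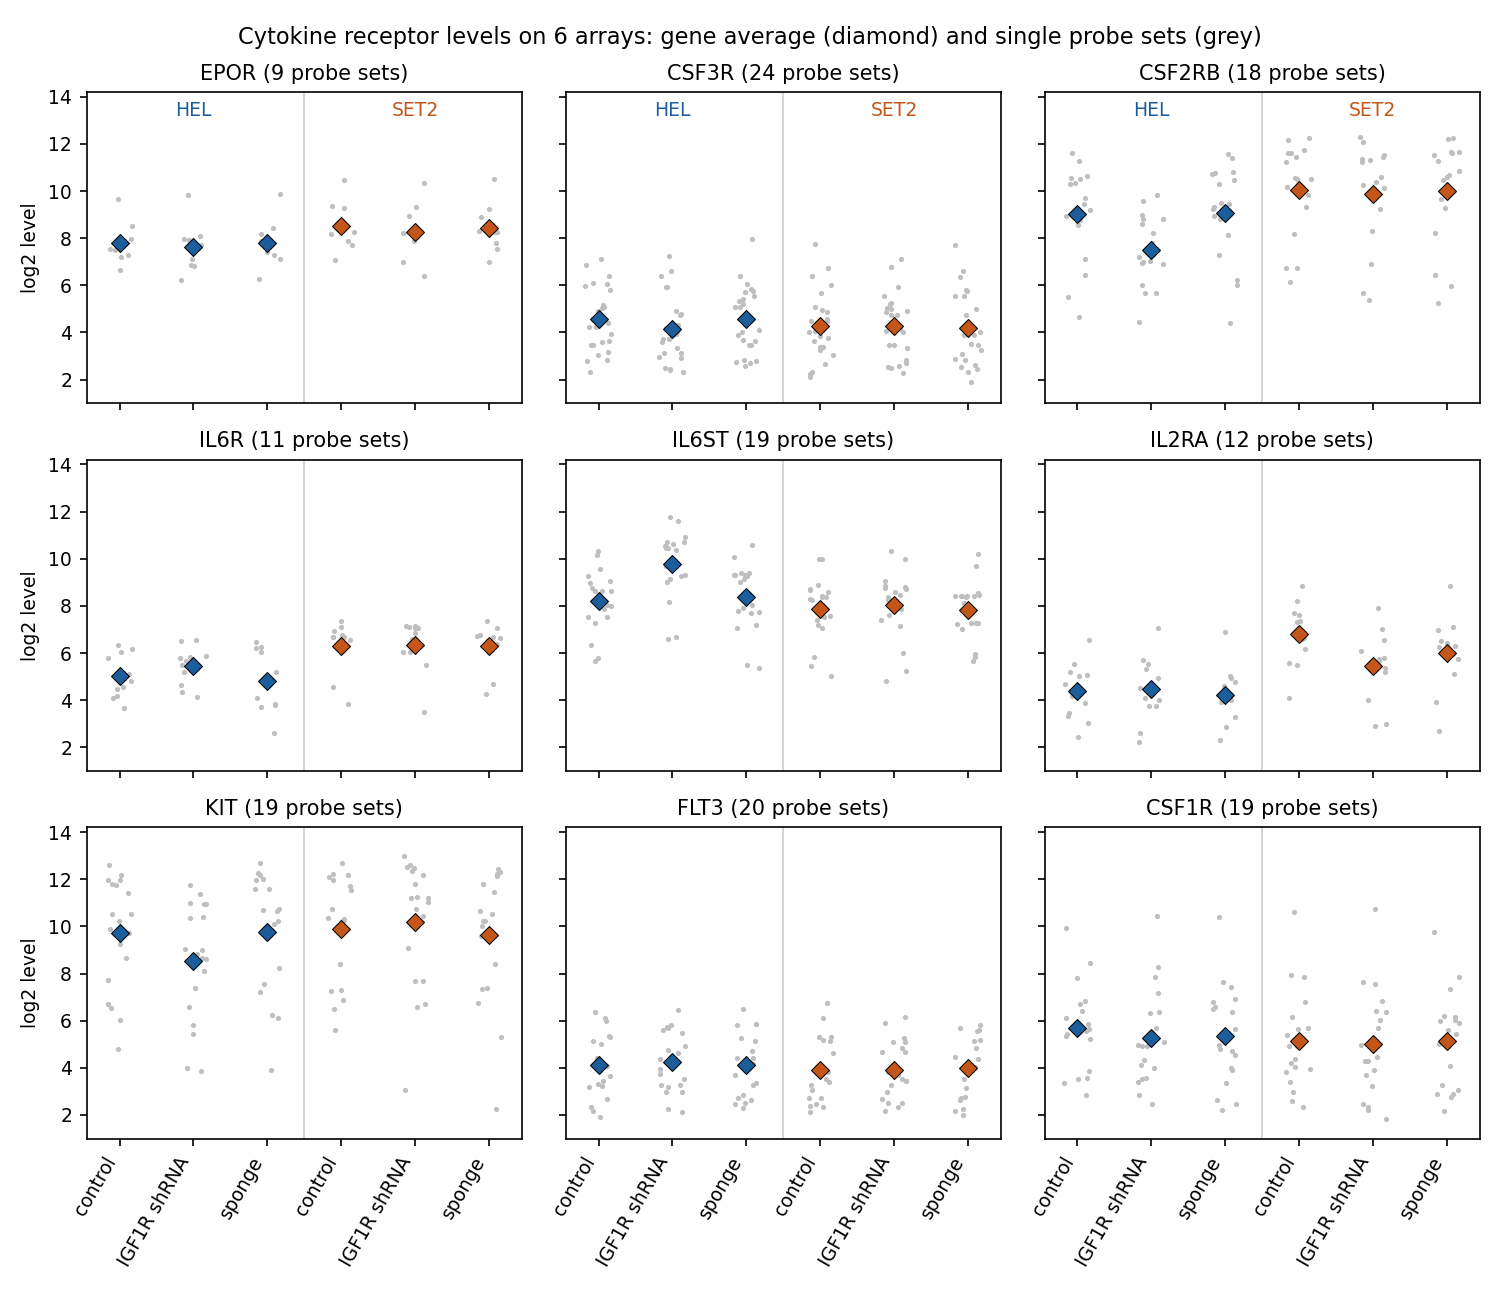
Log2 level (vertical axis) of the 9 receptors on the 6 arrays (horizontal axis: control, IGF1R shRNA and sponge, HEL in blue at the left and SET2 in orange at the right). Diamonds are gene averages and grey points single probe sets; arrays may be compared within a panel, not genes with each other. In HEL the array labelled IGF1R shRNA stands apart for CSF2RB at 7.50, KIT at 8.53 and IL6ST at 9.77, and in SET2 the IL2RA diamonds spread from 5.43 to 6.80.

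The first comparison asked how the lines differ. SET2 had more transcript of EPOR, CSF2RB, IL6R and IL2RA than HEL, by 1.6-fold to 3.31-fold, and with all arrays and gene averages no receptor was called higher in HEL, although IL6ST was under other planned settings given below. These 4 of 9 receptors passed an adjusted p of 0.05, each higher in SET2, where 24.5% of all genes passed in either direction, 13% with the higher level in SET2 and 11.6% with the higher level in HEL. The median HEL minus SET2 difference of the 9 receptors was -0.58 on the log2 scale, and that of all genes 0.0076. With 3 arrays a line, the arrays of the lines did not overlap for 7 of the 9 receptors, against 39.2% of all genes. SET2 was above for 4 of them (20% of all genes) and HEL for 3 (19.2%). With the brightest probe set of each gene in place of the average, IL2RA alone passed (-1.71, limma adjusted p = 0.0253), while EPOR, CSF2RB and IL6R gave -0.66, -1.18 and -0.39 with adjusted p of 0.0577, 0.0944 and 0.199. Under this setting 2613 of 22320 genes passed, so the share of receptors called was near that of all genes. The test was limma with construct and line as terms and Benjamini-Hochberg adjustment over 22320 genes. Nothing in the labels says that the arrays of a line are separate cultures beyond their construct, so p-values measure only the spread between these arrays. In bulk RNA, fewer cells with a receptor and less RNA per cell cannot be told apart.

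Among receptors that act as pairs of 1 chain, EPOR separated the lines and CSF3R did not. The log2 level of EPOR was 7.78, 7.62 and 7.78 in HEL (control, IGF1R shRNA, sponge) and 8.53, 8.27 and 8.42 in SET2. All SET2 arrays lay above all HEL arrays, with a gap of 0.49. HEL minus SET2 was -0.68 (SE 0.12, n = 3 a line, limma adjusted p = 0.00636), or 62.3% of the SET2 level. Of the 9 EPOR probe sets, 8 had every SET2 array above every HEL array. The call was narrow: the adjusted p was 0.0502 without a sponge array of either line. CSF3R measured 4.56, 4.13 and 4.56 in HEL and 4.28, 4.29 and 4.18 in SET2, so that the lines overlapped. Its difference was 0.17 (SE 0.15, 95% interval -0.18 to 0.51, limma adjusted p = 0.494), and 1 of its 24 probe sets separated the lines.

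CSF2RB, the shared beta chain, was higher in SET2, and so were its alpha chains. CSF2RB measured 9.04, 7.50 and 9.08 in HEL and 10.05, 9.89 and 9.98 in SET2. The SET2 arrays lay close together and above all HEL arrays, of which the one labelled IGF1R shRNA was lowest. HEL minus SET2 was -1.44 (SE 0.28, limma adjusted p = 0.0115), or 36.9% of the SET2 level, and 15 of 18 probe sets separated the lines in that direction. Without the arrays labelled IGF1R shRNA the difference was -0.96 (limma adjusted p = 0.00167). The alpha chain of the interleukin-3 receptor, IL3RA, ran from 4.56 to 4.84 in HEL and from 6.87 to 7.50 in SET2, a difference of -2.42 (SE 0.13, limma adjusted p = 5.6e-05). The GM-CSF alpha chain CSF2RA differed by -2.05 (SE 0.12, limma adjusted p = 8.48e-05), from 4.61 to 4.92 in HEL and from 6.76 to 6.82 in SET2. The interleukin-5 alpha chain IL5RA differed by -1.08 (SE 0.12, limma adjusted p = 0.00118). All 4 chains of this receptor family were thus higher in SET2. In HEL the control and the array labelled IGF1R shRNA were close for IL3RA (4.84 on both) and IL5RA (4.22 and 4.24). For CSF2RA they read 4.92 and 4.61.

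**Figure D2:**
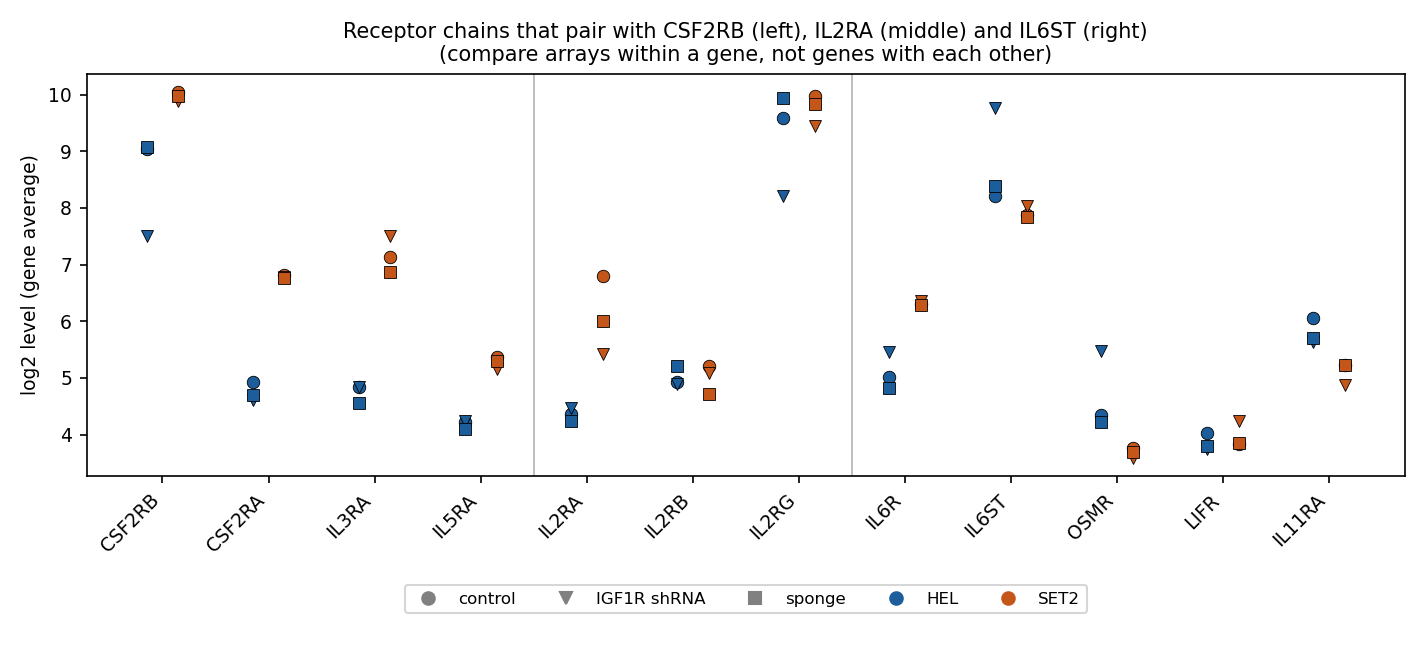
Log2 level (vertical axis) of CSF2RB, IL2RA, IL6R and IL6ST with the chains they pair with (horizontal axis), HEL in blue and SET2 in orange; circles are control, triangles IGF1R shRNA and squares sponge arrays. CSF2RB, CSF2RA, IL3RA and IL5RA lie higher on all SET2 arrays than on all HEL arrays, whereas IL2RB of the 2 lines overlaps; heights may be compared within a gene only.

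The interleukin-6 receptor chains gave differences of opposite sign, of which only that of IL6R passed. IL6R measured 5.01, 5.46 and 4.82 in HEL and 6.31, 6.36 and 6.29 in SET2, with all SET2 arrays above by at least 0.83. Its HEL minus SET2 difference was -1.22 (SE 0.15, limma adjusted p = 0.00148), or 42.9% of the SET2 level, and 6 of 11 probe sets separated the lines with SET2 above. IL6ST, the signalling chain, measured 8.21, 9.77 and 8.38 in HEL and 7.87, 8.03 and 7.84 in SET2, so all HEL arrays lay higher, by a gap of 0.18. The difference of 0.87 missed the threshold (SE 0.26, 95% interval 0.24 to 1.5, limma adjusted p = 0.0544). IL6ST passed in limma with dim genes left out (adjusted p = 0.0451), with arrays centred (0.0494) or quantile normalised (0.0496), without a control array of either line (1.14, adjusted p = 0.0478) and without an array labelled IGF1R shRNA of either line (0.44, adjusted p = 0.0439). It did not pass with the median or the brightest probe set (adjusted p = 0.0867 and 0.151), an intensity trend (0.0529), the line as the only term (0.106) or without a sponge array (0.0834). Leaving out both arrays labelled IGF1R shRNA, an alternative chosen after the values were seen, gave the same 0.44 and adjusted p of 0.0439 as leaving out 1 of them. Of the 19 IL6ST probe sets, 11 had every HEL array higher, while probe set 16996309, noticed after its values were seen, was lower in HEL controls (7.28) than in SET2 controls (8.25). OSMR, which pairs with IL6ST to bind oncostatin M, was higher in HEL by 1.0 (SE 0.27, limma adjusted p = 0.0345), from 4.22 to 5.47 in HEL and from 3.59 to 3.76 in SET2. The 5.47 came from the array labelled IGF1R shRNA, and the HEL control and sponge arrays read 4.35 and 4.22. IL11RA, the interleukin-11 chain that also uses IL6ST, was higher in HEL by 0.70 (limma adjusted p = 0.00859), and LIFR lay at 3.74 to 4.03 in HEL and 3.84 to 4.24 in SET2.

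IL2RA differed most among the 9 receptors and was the most variable of them within SET2. It measured 4.37, 4.46 and 4.23 in HEL and 6.80, 5.43 and 6.0 in SET2. The lowest SET2 array, labelled IGF1R shRNA, still lay 0.97 above the highest HEL array, and the SET2 control was the highest of all. HEL minus SET2 was -1.73 (SE 0.26, limma adjusted p = 0.00369), or 30.2% of the SET2 level, with 10 of 12 probe sets separating the lines. The other chains of the interleukin-2 receptor did not pass the threshold: IL2RB differed by 0.01 (limma adjusted p = 0.985) and the common gamma chain IL2RG by -0.51 (limma adjusted p = 0.195). IL2RB lay at 4.90 to 5.21 in HEL and 4.72 to 5.21 in SET2, where the lines overlap.

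None of the receptor tyrosine kinases passed the threshold between the lines. KIT measured 9.70, 8.53 and 9.77 in HEL and 9.90, 10.19 and 9.65 in SET2, and the lines overlapped because the control and sponge arrays of HEL reached those of SET2. Its HEL minus SET2 difference was -0.58 (SE 0.32, 95% interval -1.34 to 0.18, limma adjusted p = 0.26), and without the arrays labelled IGF1R shRNA it was -0.04. FLT3 measured 4.10, 4.24 and 4.10 in HEL and 3.89, 3.91 and 4.01 in SET2. The HEL arrays of FLT3 were higher by a gap of 0.09, with a difference of 0.21 (SE 0.12, limma adjusted p = 0.279). CSF1R measured 5.7, 5.28 and 5.36 in HEL and 5.14, 5.00 and 5.13 in SET2, again with HEL above, by a gap of 0.14. Its difference of 0.36 had an interval of 0.06 to 0.66 and an adjusted p of 0.0885 in limma, and with the brightest probe set alone it was -0.10. All 19 CSF1R probe sets overlapped between the lines, and 3 of 20 FLT3 probe sets had HEL above.

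**Figure D3:**
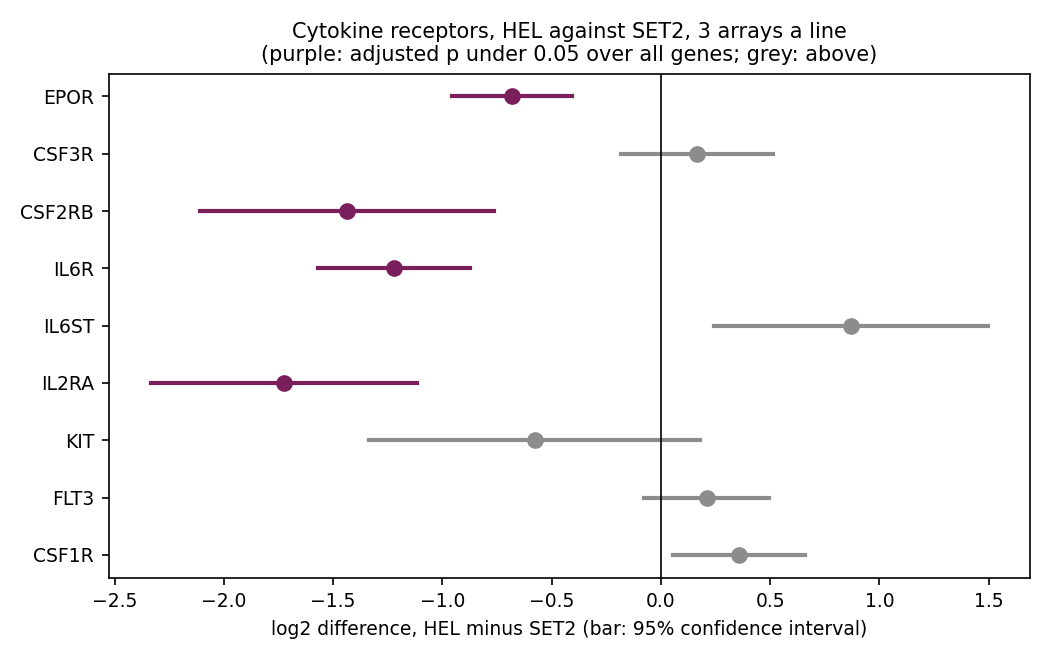
Log2 difference, HEL minus SET2, of the 9 receptors (horizontal axis) with 95% confidence intervals from limma, 3 arrays a line; purple marks an adjusted p under 0.05 over all genes. EPOR (-0.68), CSF2RB (-1.44), IL6R (-1.22) and IL2RA (-1.73) pass, all on the side of SET2, and the interval of IL6ST (0.24 to 1.5) lies on the side of HEL without an adjusted p under the threshold.

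Single probe sets gave fewer calls than gene averages. When all 352859 probe sets were tested, 5 of the 151 receptor probe sets passed, where 4.37% of all probe sets did. All 5 were lower in HEL, as were 2.27% of all probe sets, 2 of them in IL6R and 3 in IL2RA. The largest difference among them was that of IL2RA probe set 16711508, at 3.03, 4.92 and 2.86 in HEL and 7.61, 7.0 and 7.09 in SET2. The share of receptor probe sets called was near that of the whole array.

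Genes that work with these receptors differed between the lines in both directions, and the counts of each list stand against 24.5% of all genes. That share is not matched for level. With genes under the median level left out, 4366 of 11160 genes passed, a larger share. No list was compared with genes of like level, so these counts cannot show whether a list holds an excess. Of the 29 measured partner and related receptor chains, 15 passed, 5 higher in HEL and 10 in SET2, with a median difference of -0.17. Beside the chains named above, IL21R, which pairs with the common gamma chain, was higher in HEL by 2.06 (SE 0.14, limma adjusted p = 0.000158) and IL13RA1, which pairs with the interleukin-4 receptor, by 1.65 (SE 0.31, limma adjusted p = 0.00994). IL13RA1 was highest on the HEL array labelled IGF1R shRNA, at 7.80, against 6.64 and 6.60 on the HEL control and sponge arrays. IL7R was higher in HEL (0.73) and the interleukin-9 receptor IL9R in SET2 (-0.97). Of 17 ligands, 2 passed, a share below that of all genes, both higher in SET2 and both of the interleukin-6 family: LIF differed by -1.79 (SE 0.12, limma adjusted p = 0.000134) and OSM by -0.81 (SE 0.16, limma adjusted p = 0.0116). The ligands EPO, CSF3, IL6, IL2, KITLG and FLT3LG did not pass.

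Of 17 measured JAK, STAT and adaptor genes, 7 passed, 4 higher in HEL (JAK3, LYN, JAK1 and SHC1) and 3 in SET2 (STAT4, GAB1 and STAT2). STAT4, a factor used by interleukin-12 receptors, ran from 5.46 to 5.78 in HEL and from 8.28 to 8.48 in SET2, a difference of -2.74 (SE 0.14, limma adjusted p = 4.73e-05). JAK3, the kinase bound to the common gamma chain, was higher in HEL by 0.98 (SE 0.12, limma adjusted p = 0.00171), while JAK2 did not pass (0.27, limma adjusted p = 0.144). Of 21 negative regulators, 8 passed, 4 each way. CBL, a ubiquitin ligase that sends KIT and other receptors to degradation, ran from 8.63 to 9.35 in HEL and from 6.31 to 6.42 in SET2, a difference of 2.64 (SE 0.16, limma adjusted p = 8.11e-05). SOCS3, an inhibitor that binds IL6ST, EPOR and CSF3R, was higher in HEL by 1.58 (SE 0.28, limma adjusted p = 0.00751), and SH2B3 (LNK), which restrains JAK2, by 1.05. In HEL SOCS3 read 7.11, 8.16 and 7.18 (control, IGF1R shRNA, sponge). Conversely PTPN1, a phosphatase that acts on JAK2, was higher in SET2 (difference -1.65, SE 0.13, limma adjusted p = 0.000316), as were CBLB, SOCS2 and CISH.

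Among 14 genes of receptor shedding, transport and stability, 5 passed. ADAM10, a protease that can release the ectodomain of IL6R, was higher in HEL by 0.66 (limma adjusted p = 0.0242), and the ubiquitin ligase chain BTRC, which acts on EPOR, was higher in SET2 by a difference of -0.87 (limma adjusted p = 0.00656). ADAM17, the other main IL6R sheddase, did not pass (limma adjusted p = 0.996). Of 13 transcription factors known to act on these receptor genes, MEIS1 (1.17), SPI1 (0.87) and GFI1B (0.45) were higher in HEL, and KLF1 (-0.98) and MYB (-0.82) in SET2. GATA1, which drives EPOR, ran from 9.96 to 10.43 in HEL and from 9.98 to 10.12 in SET2 and did not pass (0.21, limma adjusted p = 0.314).

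Markers of blood lineages differed between the lines to unlike degrees, and their counts are read against the 24.5% of all genes that passed, a share not matched for level. Of 10 measured erythroid markers 8 passed, 7 of them higher in SET2, and the mean level of the list ran from 6.85 to 7.18 in HEL and from 7.36 to 7.58 in SET2. SLC4A1 (band 3) differed by -2.82 and the fetal globin HBG1 by -2.25, whereas the embryonic globin HBE1 was higher in HEL by 5.38 (limma adjusted p = 1.76e-05). The HBG1 value rests on 1 probe set. The other fetal globin, HBG2, with 5 probe sets, did not pass and had the opposite sign (0.20, limma adjusted p = 0.32). Of 10 megakaryocyte markers 5 passed, all higher in HEL, with list means of 8.08 to 8.22 in HEL and 6.64 to 6.94 in SET2. P-selectin (SELP) led them with a difference of 4.50 (limma adjusted p = 6.62e-06), ahead of GP9 (3.21) and ITGB3 (2.31). Myeloid markers gave 2 calls of 11, a share below that of all genes: ITGAM (-2.58) and LYZ (-1.47), both higher in SET2, with list means of 6.07 to 6.12 in HEL and 6.30 to 6.51 in SET2. Lymphoid markers gave 3 of 12, a share near that of all genes: CD2 (2.12) and IL7R higher in HEL and CD4 (-1.0) in SET2, with list means of 5.45 to 5.52 and 5.22 to 5.42, and CD3D, CD3E and MS4A1 lay between 3.66 and 4.70 on all arrays. Epithelial and fibroblast markers gave 5 of 10, CDH1 (-3.40), LUM (-1.07) and EPCAM (-0.57) higher in SET2 and KRT18 (1.37) and KRT8 (0.50) in HEL, with list means of 4.84 to 4.92 in HEL and 5.16 to 5.24 in SET2. The part of these lineage differences in the receptor values was not tested.

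The second comparison asked what the construct labelled IGF1R shRNA changed. No receptor passed on average over the lines, and none of 22320 genes did (0%), with 1656 genes and 2 receptors under an unadjusted p of 0.05 in limma. If nothing changed, 1116 genes would be expected under that value. The largest average changes were those of IL6ST, at 0.86 (SE 0.32, 95% interval 0.09 to 1.63, limma adjusted p = 0.646), and CSF2RB, at -0.85 (SE 0.35, 95% interval -1.67 to -0.02, limma adjusted p = 0.667). IL2RA averaged -0.64 (SE 0.31, 95% interval -1.38 to 0.11), KIT -0.44 (SE 0.39, 95% interval -1.37 to 0.49) and CSF1R -0.28 (SE 0.16). The averages hide unlike values in the lines. The receptor median was -0.21 and that of all genes -0.0108.

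Within HEL, 3 receptors moved by 1 or more on the log2 scale between the control and the array labelled IGF1R shRNA, and 2.64% of all genes did (1.34% higher, 1.3% lower). With 1 array on each side these are values without a test. CSF2RB went from 9.04 to 7.50 and KIT from 9.70 to 8.53, whereas IL6ST went from 8.21 to 9.77. The probe sets of each gene ran together: all 19 KIT probe sets were lower, 17 of 18 CSF2RB probe sets were lower and all 19 IL6ST probe sets were higher. Among probe sets with a mean level of 8 or more, changes ran from -2.23 to -1.47 in CSF2RB (14 probe sets), from -2.08 to -0.80 in KIT (14) and from 1.27 to 1.92 in IL6ST (12). These are the same RNA read by different probes, not replicates. IL6R changed by 0.44, CSF3R by -0.43 and CSF1R by -0.42, with probe sets on both sides of 0, and EPOR by -0.16, FLT3 by 0.14 and IL2RA by 0.09.

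Within SET2 only IL2RA of the 9 receptors moved by 1 or more, where 0.757% of all genes did (0.444% lower). IL2RA went from 6.80 to 5.43, and all 12 of its probe sets were lower, by -2.51 to -0.50 with a median of -1.365. KIT went the other way than in HEL, from 9.90 to 10.19, with 17 of 19 probe sets higher. CSF2RB changed by -0.16, IL6ST by 0.16 and EPOR by -0.25, while CSF1R changed by -0.14 and IL6R, FLT3 and CSF3R by 0.05 or less. For IL2RA the HEL arrays stayed between 4.23 and 4.46, and its brightest probe set, 16711512, read 6.55, 7.04 and 6.89 in HEL and 8.86, 7.89 and 8.85 in SET2.

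**Figure D4:**
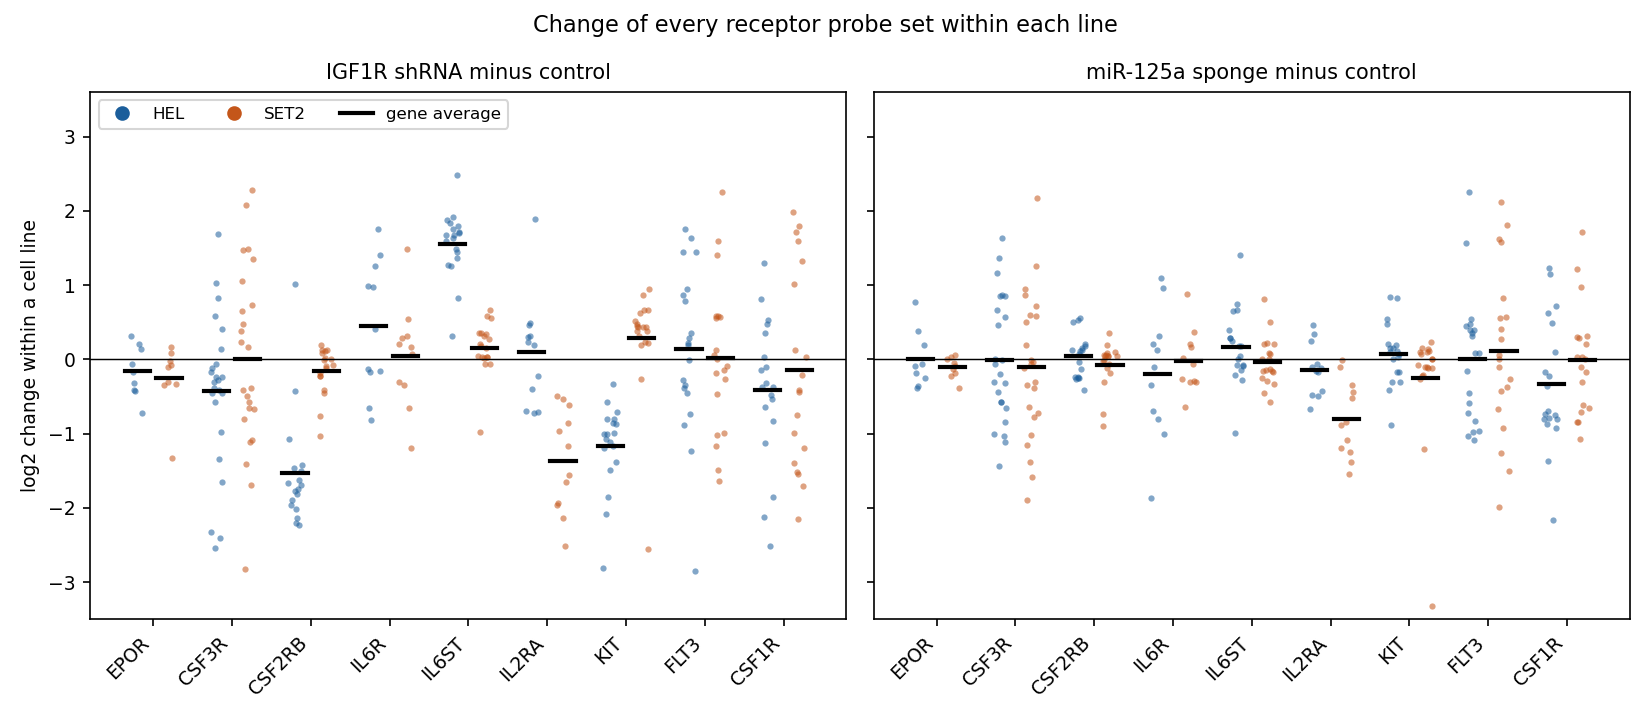
Log2 change from the control of the same line (vertical axis) of every probe set of the 9 receptors (horizontal axis) in the array labelled IGF1R shRNA (left) and the sponge array (right), HEL in blue and SET2 in orange; black bars are gene averages. In HEL the probe sets of IL6ST lie near 1.56 and those of CSF2RB and KIT near -1.54 and -1.17, in SET2 those of IL2RA lie near -1.37, and on the right the lowest gene average is IL2RA in SET2 at -0.80.

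The difference between the lines was tested by setting the HEL minus SET2 difference of the arrays labelled IGF1R shRNA against that of the control and sponge arrays together. KIT passed, at -1.62 (SE 0.24, limma adjusted p = 0.0498), 1 of 9 receptors where 0.636% of all genes passed, 0.287% with the same sign. CSF2RB lay just above the threshold at -1.43 (SE 0.21, limma adjusted p = 0.0506), as did IL6ST at 1.30 (SE 0.22, limma adjusted p = 0.0638). IL2RA gave 1.13 (SE 0.31, limma adjusted p = 0.141), and the other 5 receptors lay between -0.49 and 0.48 with adjusted p of 0.305 or more in limma. The fit has 1 residual degree of freedom and takes the sponge to act alike in both lines. KIT was not called when genes were summarised by the median of their probe sets or by the brightest one (limma adjusted p = 0.242 and 0.449), and with dim genes left out, arrays centred, arrays quantile normalised or an intensity trend in limma all 3 of KIT, CSF2RB and IL6ST were called.

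The list genes that passed this test beside KIT were 1 receptor chain, IL13RA1 (1.61, limma adjusted p = 0.0448), 1 ligand, CSF1 (1.77, limma adjusted p = 0.0448), 1 erythroid marker, ALAS2 (-1.55, limma adjusted p = 0.0472), and 1 megakaryocyte marker, PPBP (-1.83, limma adjusted p = 0.0472). They were named after their values were seen. From control to IGF1R shRNA, IL13RA1 went from 6.64 to 7.80 in HEL and from 5.47 to 5.08 in SET2. CSF1, the ligand of CSF1R, was 6.86 and 8.25 in HEL and 8.11 and 7.83 in SET2. Over the same HEL pair the erythroid list mean was 7.18 and 6.85 and the megakaryocyte mean 8.14 and 8.22, and in SET2 they were 7.58 and 7.38, and 6.81 and 6.94. The part of these markers in the receptor values was not tested.

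The third comparison asked what the miR-125a sponge changed. No receptor passed, none of 22320 genes did (0%), and 412 genes but no receptor had an unadjusted p under 0.05 in limma. That is fewer than the 1116 genes expected under 0.05 if nothing changed. Within HEL no receptor moved by 1 or more, where 0.305% of all genes did, and within SET2 none did, where 0.273% did. IL2RA had the largest average, -0.47 (SE 0.31, 95% interval -1.22 to 0.28, limma adjusted p = 1). In SET2 it went from 6.80 to 6.0, with all 12 probe sets lower by -1.55 to -0.01, and in HEL from 4.37 to 4.23. The other receptors averaged between -0.17 (CSF1R) and 0.07 (IL6ST), and EPOR, CSF3R and FLT3 were the same in the HEL control and sponge arrays to 2 decimals. The 95% intervals ran from -0.84 to 0.81 for CSF2RB, from -1.02 to 0.84 for KIT and from -0.39 to 0.28 for EPOR. They take their spread from all 6 arrays, so unlike changes of the lines under the construct labelled IGF1R shRNA widen them. For CSF2RB, KIT and IL2RA the intervals are therefore not a measure of the sponge alone. The test of a line difference in the sponge change called no gene (0%). In limma 285 genes, also fewer than 1116, and no receptor had an unadjusted p under 0.05. That fit takes the IGF1R shRNA to act alike in both lines, but CSF2RB, KIT, IL6ST and IL2RA changed unlike between them under that label. For IL2RA the change was 0.09 in HEL and -1.37 in SET2. For these receptors it therefore cannot settle a line difference under the sponge. From control to sponge KIT changed by 0.08 in HEL and -0.26 in SET2, and CSF2RB by 0.04 and -0.07. Both constructs were set against the same control arrays, so their values are not independent.

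For the 5 receptors whose level spanned 1 or more over the 6 arrays, the genes with the nearest profile were sought among 17185 genes with 4 or more probe sets, by the root mean square difference of profiles centred on their mean. IL6ST was nearest to IL18R1, the interleukin-18 receptor chain, at 0.049 log2 units, followed by ART4 and ITGAV at 0.079 and 0.114. IL18R1 measured 5.33, 6.99 and 5.51 in HEL and 5.12, 5.27 and 5.03 in SET2. IL6R was nearest to HLA-DMB (0.051), which encodes an HLA class II peptide-loading chain, then to FAM21C (0.052) and FAM8A1 (0.064). CSF2RB was nearest to TAP1 (0.157), a peptide transporter of HLA class I presentation, OAT (0.158) and TARBP1 (0.179). KIT was nearest to DEPTOR (0.104), an inhibitor of mTOR, TMEM245 (0.126) and NHLRC2 (0.13). DEPTOR measured 6.86, 5.61 and 6.74 in HEL and 6.89, 7.01 and 6.67 in SET2. Because it was picked for its likeness to KIT on these arrays, its low value in the HEL array labelled IGF1R shRNA is no separate observation. IL2RA had the least close neighbours, SH2D1B (0.167), the leukocyte integrin chain ITGAX (0.186) and FGF2 (0.203), and ITGAX measured 4.44, 4.51 and 4.51 in HEL and 6.87, 5.36 and 6.49 in SET2. These likenesses rest on 6 arrays and describe level patterns only.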

How the data were processed

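The authors deposited log2 levels of 352859 probe sets for 6 arrays, with 1 array per line and construct. The log2 scale was read from their range, 1.61 to 13.99. The submitters' processing notes name Affymetrix Expression Console; summarisation, background correction, normalisation and build are not given in the sources used here. Probe sets with 1 listed symbol (259224) were averaged into 22320 genes (median 9.5 probe sets a gene), and 13116 with several symbols and 80519 with none were left out. List genes without such a probe set are not analysed here.

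Genes were tested in limma 3.58.1 under R 4.3.3 (lmFit, eBayes; data.table version 1.17.8) with construct and line as terms, 2 residual and 4.78 prior degrees of freedom, two-sided, Benjamini-Hochberg over all genes, threshold 0.05. Line by construct differences had 1 residual degree of freedom, with 5.65 (IGF1R shRNA) and 6.14 (sponge) prior ones. The replicate number is the line, so the line is a block; arrays of 1 line deviated together from their construct means (lowest correlation 0.746). The number of arrays limits the precision. Fits were tested on simulated data.

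The receptors and gene lists were chosen with earlier results of these data known. Named genes were the 9 receptors, IGF1R, at most 4 genes each way per list past the threshold between lines, and the 3 nearest profiles per receptor spanning 1 or more. Promoter windows were read from RefSeq (GRCh38.p14) under Python 3.11.15 with pandas 2.3.3, and plots drawn with matplotlib 3.10.9. Alternatives were the probe set summary, dim genes, centring, quantile normalisation, an intensity trend, each array left out, and the block.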

Additional observations from a re-analysis of the deposited data

Results flagged for a closer look

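KIT stood out because the lines differed in its change under the construct labelled IGF1R shRNA. The HEL minus SET2 difference of those arrays, set against that of the other arrays, was -1.62 (SE 0.24, limma adjusted p = 0.0498 over 22320 genes). KIT went from 9.70 to 8.53 in HEL, with all 19 probe sets lower, and from 9.90 to 10.19 in SET2, with 17 of 19 higher. Each of these values rests on 1 array, and the adjusted p of KIT ran from 0.0105 to 0.449 over the 6 alternatives.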

How the results depend on the processing

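With 1 array per line and construct and no background measure, only large changes under a construct could be called. Between the lines smaller differences passed, among them that of CISH at -0.40 (limma adjusted p = 0.044). CSF3R, FLT3, IL2RA and CSF1R had a mean level under the median of all genes, 5.55, and give no value with dim genes left out; noise at low signal could not be measured. Over all comparisons, receptors and alternatives, 385 values kept direction and side of the threshold, 7 lost and 19 gained a call, and 37 changed sign. The cause was not tested for any of them. This tally holds repeats: between the lines, leaving out the HEL or the SET2 array of a construct gave the same values. Leaving out both arrays labelled IGF1R shRNA repeated them again. Between the lines, receptor calls ran from 3 to 5 and calls over all genes from 2871 to 6330 when each array was left out; they were 5 and 6330 without the arrays labelled IGF1R shRNA. With the brightest probe set they were 1 and 2613, where CSF3R was -0.11 and CSF1R -0.097. Receptor probe sets called went from 5 to 16 with dim ones left out and to 0 on leaving out any array (0 to 0). For the IGF1R shRNA average, leaving out arrays gave 0 to 3 receptor and 0 to 729 gene calls; the 3 came without the SET2 array, where CSF2RB was -1.56, KIT -1.25 and IL6ST 1.51 (limma adjusted p = 0.0126, 0.0241 and 0.0142) and HEL alone carries the change. Signs turned for EPOR with the median (0.055) and the brightest probe set (0.015), and with the latter for FLT3 (-0.64) and CSF1R (0.325); leaving out arrays gave CSF3R -0.45 to 0.034, KIT -1.25 to 0.37 and FLT3 -0.0146 to 0.16. For the line difference of that change, receptor and gene calls went from 1 and 142 to 0 and 0 with the median and the brightest probe set, and to 3 with dim genes left out (1083), centring (382), quantile normalisation (418) and an intensity trend (871); CSF1R turned to 0.325 with the median, CSF3R to 0.345 and IL6R to -0.21 with the brightest. For the sponge average, signs turned with the median for EPOR (0.015), CSF3R (0.06), CSF2RB (0.0875) and KIT (0.185), with the brightest for EPOR (0.11), CSF3R (0.405), FLT3 (-0.265), IL6R (0.24) and IL2RA (0.165), and with quantile normalisation for CSF2RB (2e-04). Leaving out arrays there gave CSF3R -0.22 to 0.10, CSF2RB -0.42 to 0.38, KIT -0.62 to 0.44, FLT3 -0.027 to 0.15, IL6R -0.29 to 0.0755, IL6ST -0.33 to 0.47 and IL2RA -1.0 to 0.0604, all without a call. For its line difference, EPOR was -0.055 with the median, and FLT3 0.31, IL6R 0.225 and CSF1R 1.135 with the brightest. Without the line as a replicate block, both construct averages still gave 0 receptor calls. Leaving out an array was not run for the line differences, which would have 0 residual degrees of freedom.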

Other observations

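Several genes that act with the receptors changed by 1 or more in HEL between the control and the array labelled IGF1R shRNA; they were named after their values were seen, and each value is 1 array. The common gamma chain IL2RG went from 9.59 to 8.21 and IL21R, which pairs with it, from 7.70 to 6.69. STAT5A, a main effector of EPOR and CSF2RB signalling, went from 9.25 to 7.83, while SOCS3 went from 7.11 to 8.16. OSMR, the partner of IL6ST, went from 4.35 to 5.47. The transcription factors GATA2 and CEBPB went from 9.37 to 8.12 and from 7.34 to 6.16. In SET2 the same pairs of arrays read 9.98 and 9.45 for IL2RG, 5.43 and 4.95 for IL21R, 8.80 and 8.88 for STAT5A, 5.99 and 5.64 for SOCS3, 3.76 and 3.59 for OSMR, 9.41 and 8.92 for GATA2, and 6.59 and 6.36 for CEBPB. None of these 7 genes passed the test of whether the lines differed in their change under the construct labelled IGF1R shRNA. In that limma test SOCS3 had an adjusted p of 0.0506 and OSMR of 0.0555.

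KIT probe set 16966871 read 5.59 in the SET2 control and 2.27 in the SET2 sponge array, while the gene average read 9.90 and 9.65.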
